A study of Mus musculus with 18 samples.

Results

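Collagens are the main structural proteins of the extracellular matrix, and their RNA was followed in pancreatic islets of 3 mouse genotypes. The collagen genes were all entries of the count table whose symbol consists of Col, a type number, the letter a and a chain number, which gave 44 of 54186 genes: 11 fibrillar collagens, 8 collagens of basement membranes and 25 others. Of the 44, 40 passed the filter on low counts and were tested, among 20244 genes tested in all. In 38 of these 40 genes all 6 libraries of every genotype reached the level the filter asks for, and Col6a4 and Col17a1, both near the filter's limit, did so in no genotype. Col2a1, Col24a1, Col9a1 and Col22a1 were not tested, and no library held more than 0.122 CPM (counts scaled to a normalized library total) of any of them.

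Islets were taken from 18 mice of the FVB strain at 6 weeks of age, 6 mice and 6 libraries for each genotype, all kept on the same Harlan Teklad diet and each giving about 165 islets. The hIAPP mice carried human islet amyloid polypeptide (IAPP), a peptide hormone released together with insulin, as a transgene active in beta cells. The rIAPP mice carried the rodent form of the peptide in the same cells, and the WT mice carried neither transgene. The promoter that drives the transgenes is not given in the sources used here. The human peptide is prone to aggregate and the rodent peptide is not, so the comparison of hIAPP with rIAPP sets the aggregating form of the transgene against the other form, and each transgenic genotype was also compared with WT.

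Each collagen chain is folded in the endoplasmic reticulum, where prolyl and lysyl residues are hydroxylated, and joins other chains to form a rope-like helix before it is secreted, trimmed and crosslinked. Fibrillar collagens of types I, III and V build the fibrils of interstitial tissue and are made chiefly by fibroblasts, stellate cells and other mesenchymal cells. Type IV collagens build the sheet of basement membranes, which in mouse islets is laid down mainly by the endothelial cells of the islet capillaries, and type VI collagens form beaded filaments between basement membranes and fibrils. Beta cells themselves are known to make little of this matrix, so most collagen RNA of an islet preparation is thought to come from the other cells in it.

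Total counts per library were 109596594 to 141534985 in hIAPP, 127598668 to 157511264 in rIAPP and 144291287 to 166233667 in WT. The mouse gene Iapp had 20876, 24436 and 30706 CPM (lowest, median and highest of 6 libraries) in hIAPP, 32829.9, 39114 and 43833 CPM in rIAPP and 25591, 33819 and 40079 CPM in WT, with ranges that overlapped except that none was shared by hIAPP and rIAPP. How far reads of the rodent transgene were counted under Iapp was not tested, and the human transgene was not analysed here. Beta cell markers summed to between 68720.2 and 126459.6 CPM in hIAPP, between 73998 and 101938 CPM in rIAPP and between 126592 and 158597 CPM in WT, levels that fit the islet label in every library. Of the 10 beta cell markers, 7 were lower in hIAPP over WT, 9 were lower in rIAPP over WT, and 9 were higher and 1 lower in hIAPP over rIAPP. On the second principal component, hIAPP 5 and hIAPP 6 lay at -61.8 and -60.6, apart from the other hIAPP libraries at -13.3 or higher, and rIAPP 1 lay at -43.5, below the other rIAPP libraries. The 15 acinar markers, genes of digestive enzymes and their regulators in exocrine tissue, summed to 10732 CPM in hIAPP 5 and 18818 CPM in hIAPP 6, against 2634 to 7179 CPM in the other hIAPP libraries. Results that rest on these 2 libraries are given with and without them.

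Collagen transcripts made up 0.168, 0.255 and 0.305% of all counts in hIAPP (lowest, median and highest library), 0.205, 0.253 and 0.329% in rIAPP and 0.116, 0.145 and 0.169% in WT. The lowest hIAPP library fell just inside the WT range, and no rIAPP library fell within it. In a bulk sample, fewer cells of a type and less RNA per cell cannot be told apart, which holds for every level below. To set genes beside each other, CPM was divided by the length of all annotated exons in kilobases. On that scale Col4a1, Col3a1 and Col4a2 held the 3 highest medians, in this order, in every genotype. Col4a1 took 25.8%, 24.3% and 29.3% of the summed level of the collagens per kilobase (medians in hIAPP, rIAPP and WT), Col3a1 took 21.6%, 24.3% and 16.5%, and Col4a2 took 12.7%, 12.7% and 14.7%. After these came Col6a1, Col1a2 and Col6a6 in hIAPP and rIAPP, and Col6a6, Col6a1 and Col13a1 in WT.

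The mix of classes differed between genotypes on the scale of CPM per kilobase. Fibrillar collagens made up 26.3, 33.4 and 36.1% of the collagen level in hIAPP, 35.1, 37.1 and 42.3% in rIAPP and 22.2, 26.1 and 27.96% in WT (lowest, median and highest library). The rIAPP libraries all lay above the WT libraries, and the hIAPP range overlapped both. Basement membrane collagens made up 37.3, 43.3 and 47.8% in hIAPP, 38.3, 41.1 and 43.2% in rIAPP and 48.05, 49.1 and 53.5% in WT, with every hIAPP and every rIAPP library below every WT library. The other collagens made up 21.9, 25.8 and 26.6% in hIAPP, 19.3, 20.6 and 24.2% in rIAPP and 22.2, 23.8 and 25.5% in WT, ranges that overlapped.

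**Figure D1:**
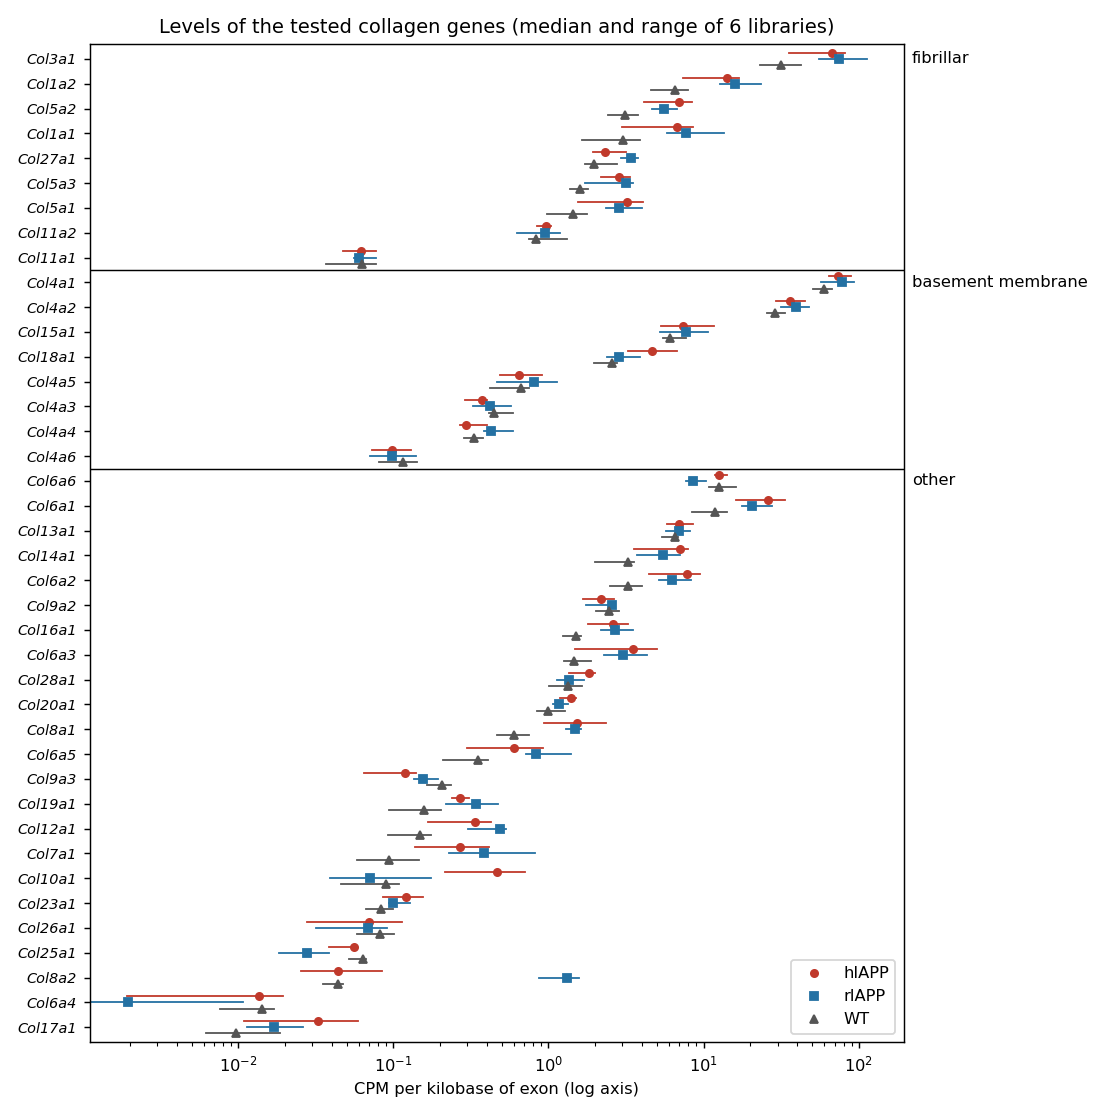
Level of each of the 40 tested collagen genes in CPM per kilobase of exon, on a log axis, by class, with the median (point) and the range (line) of 6 hIAPP, 6 rIAPP and 6 WT libraries. Col4a1, Col3a1 and Col4a2 hold the highest levels in every genotype, Col8a2 stands apart only in rIAPP, and a lowest value of 0 (Col6a4 in rIAPP) lies off the log axis.

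Against WT, both transgenic genotypes held more RNA of most fibrillar and type VI collagens, and fewer of the basement membrane collagens passed the test. The log2 fold change is that of the fitted normalized counts, given ± its standard error (SE) for single genes. Calls are genes with an adjusted p under 0.05 in edgeR's quasi-likelihood test, adjusted by Benjamini-Hochberg over all genes tested. In hIAPP over WT, 23 of 40 collagens were higher, 1 was lower and 16 did not pass, where 8.31% of all genes tested were higher and 7.53% lower. The median log2 fold change of the collagens was 0.46 in that comparison, against -0.01 over all genes. In rIAPP over WT, 21 collagens were higher, 3 were lower and 16 did not pass, with 14.1% and 12.6% of all genes, a collagen median of 0.48 and -0.01 over all genes. These comparisons share the 6 WT libraries, so their values stand side by side and are not read as separate support for each other. In hIAPP over rIAPP, 4 collagens were higher, 5 were lower and 31 did not pass, with 13.5% and 14.1% of all genes. The collagen median there was -0.04, against 0.00 over all genes, so the share of collagens called between the 2 transgenic genotypes was near the share among genes in general.

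By class, 6 of 9 tested fibrillar collagens were higher in hIAPP over WT and none was lower, with a median log2 fold change of 0.92. For rIAPP over WT the count was 7 higher of 9, with a median of 0.90, and for hIAPP over rIAPP it was 0 higher and 1 lower. Of the 8 basement membrane collagens, 2 were higher in hIAPP over WT (median 0.18) and 3 in rIAPP over WT (median 0.35), with none lower in either. Between hIAPP and rIAPP, 1 basement membrane collagen was higher and 1 lower. The 23 tested collagens of other kinds were 15 higher and 1 lower in hIAPP over WT (median 0.76), 11 higher and 3 lower in rIAPP over WT (median 0.80), and 3 higher and 3 lower in hIAPP over rIAPP (median 0.13).

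**Figure D2:**
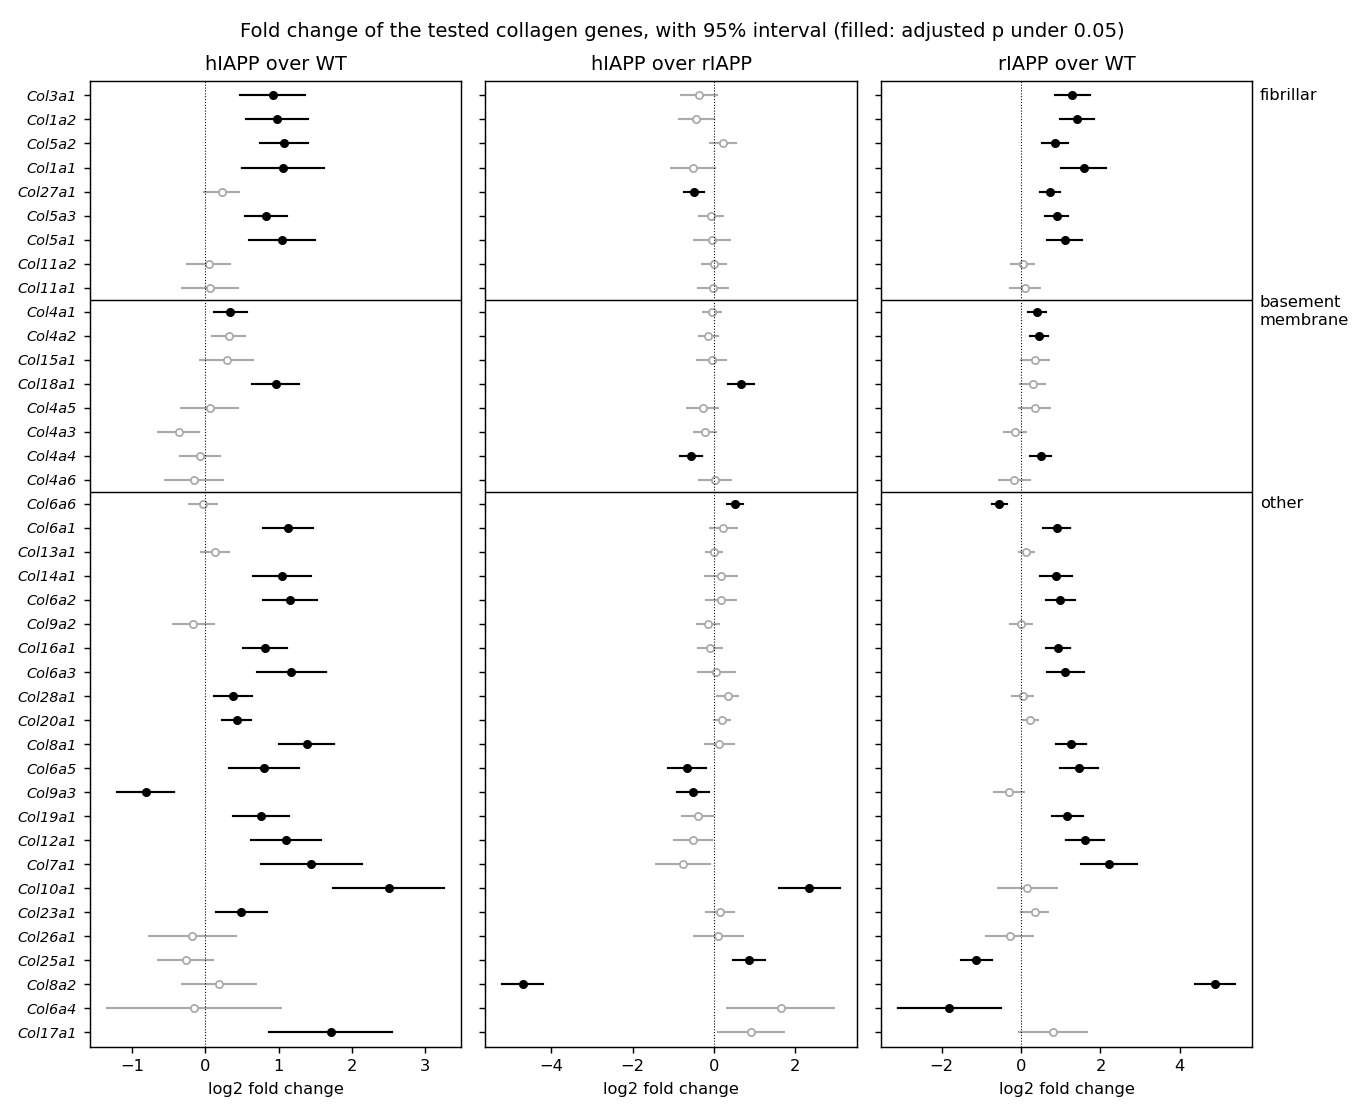
Log2 fold change of each tested collagen gene with its 95% interval from the edgeR fit, in panels for hIAPP over WT, hIAPP over rIAPP and rIAPP over WT, 6 libraries per genotype. Filled points have an adjusted p under 0.05, most of them to the right of 0 in both comparisons with WT, and Col8a2 at -4.71 for hIAPP over rIAPP and 4.89 for rIAPP over WT lies farthest from 0.

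Markers of other cell types also differed between genotypes. Beside the counts here, and those of beta cell markers above, stand the shares of all genes tested. These were 8.31% higher and 7.53% lower in hIAPP over WT and 14.1% and 12.6% in rIAPP over WT. In hIAPP over rIAPP they were 13.5% and 14.1%. The summed level of 12 mesenchymal markers other than collagens was 702, 982 and 1109 CPM in hIAPP, 735, 794 and 881 CPM in rIAPP and 560.3, 635 and 731 CPM in WT, and 8 of the 12 were called higher over WT in each transgenic genotype. Rgs5 alone had medians of 632, 398 and 393 CPM in hIAPP, rIAPP and WT within these sums, so their order between genotypes leans on that gene. Against rIAPP, 3 of the 12 markers were higher, 2 lower and 7 not called in hIAPP, with a median log2 fold change of 0.00. The 4 with the smallest p were Pdgfra at -1.66 ± 0.21 and Dcn at -0.98 ± 0.15 (log2 fold change ± SE, edgeR adjusted p = 3.79e-06 and 4.79e-05) and Rgs5 at 0.60 ± 0.10 and Notch3 at 0.62 ± 0.11 (edgeR adjusted p = 7.35e-05 and 0.000259). Endothelial markers, of which all 12 were lower in hIAPP than in rIAPP and all 12 higher in rIAPP than in WT, with 4 lower and 0 higher in hIAPP than in WT, summed to 642, 681 and 738 CPM in hIAPP, 897, 991 and 1003 CPM in rIAPP and 718, 781 and 812 CPM in WT. Macrophage markers summed to 376, 490.3 and 752 CPM in hIAPP, 94.4, 101 and 112 CPM in rIAPP and 139, 149.8 and 163 CPM in WT, with 10 of 12 higher in hIAPP over WT, 10 higher and 1 lower in hIAPP over rIAPP, and 1 higher and 6 lower in rIAPP over WT. Acinar markers summed to 2634, 6399.6 and 18818 CPM in hIAPP, 4299, 9716 and 19112 CPM in rIAPP and 973, 1934 and 4088 CPM in WT, with 13 of 15 higher in hIAPP over WT and all 15 in rIAPP over WT, and 1 lower in hIAPP over rIAPP. Schwann cell markers, 4 of 8 of them higher in hIAPP over WT and 3 of 8 in rIAPP over WT, summed to 139.8, 159.7 and 169.5 CPM in hIAPP, 186, 197 and 218 CPM in rIAPP and 132, 151 and 167 CPM in WT. Most of these sums was Ncam1, with medians of 117, 159 and 120 CPM in hIAPP, rIAPP and WT. Ductal markers summed to 502, 591 and 626 CPM in hIAPP, 610.0, 679 and 720.1 CPM in rIAPP and 541, 611 and 650.2 CPM in WT, and 1 was higher and 4 were lower in hIAPP over WT, none higher and 4 lower in hIAPP over rIAPP, and 3 higher and 2 lower in rIAPP over WT. No marker of these lists was at 0 in all libraries of a genotype. Dcn is also counted below among the collagen-binding matrix proteins. The part of these cells in the collagen differences was not tested, apart from a fit with the acinar markers.

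With the mean log2 CPM of the acinar markers as a covariate in the edgeR fit, 5 collagens were higher in hIAPP over WT (Col10a1, Col5a2, Col6a1, Col6a2 and Col8a1), and 10 were higher in rIAPP over WT (Col1a2, Col3a1, Col5a3, Col27a1, Col6a5, Col8a1, Col8a2, Col12a1, Col16a1 and Col19a1). None was lower in either. In hIAPP over rIAPP no call was lost, and Col28a1, Col6a4 and Col17a1 passed as higher (edgeR adjusted p = 0.0394, 0.033 and 0.0439). The settings listed gene by gene below leave this fit out. The collagens' median log2 fold change in that fit was 0.35 for hIAPP over WT and 0.42 for rIAPP over WT, while the calls among all genes were 810 for hIAPP over WT, against 3208 without the covariate, and 2139 for rIAPP over WT, against 5417. The acinar sum lay above all WT libraries in every transgenic library except hIAPP 1. Its effect and that of genotype on the collagens, including those still called in that fit, therefore cannot be told apart. Without hIAPP 5 and hIAPP 6, 17 collagens were higher in hIAPP over WT and the collagen median was 0.36. That setting left hIAPP libraries with acinar sums of 2634 to 7179 CPM, while rIAPP 1 and rIAPP 2, at 14187 and 19112 CPM, stayed in. In its values for hIAPP over rIAPP, genotype and this difference in acinar sums cannot be told apart.

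Many collagen genes had their highest and lowest values in the same libraries of a genotype, though the same tally was not made over all genes tested. Among the 10 genes that are fibrillar or are Col6a1, Col6a2 or Col6a3 and were called higher over WT in at least 1 transgenic genotype, hIAPP 1 was among the 2 lowest hIAPP libraries in 10 and hIAPP 3 in 9, while hIAPP 5 was among the 2 highest in 8 and hIAPP 6 in 10. Among the rIAPP libraries, rIAPP 3 and rIAPP 4 were each among the 2 highest in 9 of the 10 genes, and rIAPP 6 was among the 2 lowest in 9. WT 2 and WT 3 each stood among the 2 highest WT libraries in 9 of the genes and WT 1 among the 2 lowest in 9. Over all 40 tested collagens, hIAPP 1 was among the 2 lowest hIAPP libraries in 28 and hIAPP 3 in 23, and hIAPP 6 was among the 2 highest in 27, hIAPP 4 in 20 and hIAPP 5 in 18. Of the rIAPP libraries, rIAPP 3 and rIAPP 4 were each among the 2 highest in 30 of the 40 and rIAPP 6 among the 2 lowest in 28, and of the WT libraries WT 2 was among the 2 highest in 26, WT 3 in 25, and WT 1 among the 2 lowest in 30. The summed mesenchymal markers were lowest in hIAPP 3 (702 CPM) and hIAPP 1 (808 CPM) and highest in hIAPP 5 (1109 CPM) and hIAPP 6 (1069 CPM) among the hIAPP libraries. Among the rIAPP libraries they were highest in rIAPP 3 (881 CPM) and rIAPP 2 (846 CPM), with 808 CPM in rIAPP 4, and lowest in rIAPP 6 (735 CPM). Among the WT libraries they were highest in WT 6 (731 CPM), with 666 CPM in WT 2 and 667 CPM in WT 3, and lowest in WT 1 (560.3 CPM). Rgs5, whose genotype medians are given above, was not set apart from the mesenchymal sums. Macrophage markers were also lowest in hIAPP 3 (376 CPM) and hIAPP 1 (409 CPM). They were highest in hIAPP 5 (752 CPM) and hIAPP 6 (644 CPM). Acinar markers, too, were highest in hIAPP 6 and hIAPP 5. Endothelial markers were highest in rIAPP 3 (1003 CPM) and rIAPP 4 (1002 CPM). Their lowest sums were in rIAPP 6 (897 CPM) and rIAPP 1 (907 CPM). Which cells gave the collagen order was not tested.

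The fibrillar chains were led by Col3a1, whose chain forms type III collagen of loose connective tissue and vessel walls (chromosome 1, 45311538 to 45349706, GRCm38, plus strand). Col3a1 had 349, 664 and 802 CPM (lowest, median and highest of 6 libraries) in hIAPP, 542, 735 and 1105 CPM in rIAPP and 226, 311 and 418 CPM in WT. Every rIAPP library lay above every WT library, and in hIAPP only hIAPP 3 fell within the WT range. Its log2 fold change was 0.92 ± 0.21 (SE) for hIAPP over WT (edgeR adjusted p = 0.00572) and 1.29 ± 0.21 for rIAPP over WT (adjusted p = 0.000105). Col3a1 gave -0.37 ± 0.21 for hIAPP over rIAPP (adjusted p = 0.213, not called).

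Type I collagen, the main protein of tendon, bone and scar, is built from the chains of Col1a1 and Col1a2. Col1a1 (chromosome 11, 94936224 to 94953042, plus strand) had 19.6, 44.5 and 56.2 CPM in hIAPP, 38.1, 50.4 and 88.9 CPM in rIAPP and 10.8, 19.9 and 25.5 CPM in WT. Here hIAPP 1 and hIAPP 3 lay within the WT range and no rIAPP library did. The fold change of Col1a1 was 1.06 ± 0.27 for hIAPP over WT (edgeR adjusted p = 0.0102) and 1.58 ± 0.27 for rIAPP over WT (0.000149). Col1a1 gave -0.52 ± 0.26 for hIAPP over rIAPP (0.16). Without hIAPP 5 and hIAPP 6 the call against WT ended, at 0.78 ± 0.28 (edgeR adjusted p = 0.0956), and Col1a1 was lower in hIAPP than in rIAPP, at -0.81 ± 0.29 (0.0469). All rIAPP libraries, with the acinar sums given above, stayed in that fit. Col1a2 (chromosome 6, 4504814 to 4541544, plus strand) had 91.9, 176 and 212 CPM in hIAPP, 159, 197 and 292 CPM in rIAPP and 56.7, 80.8 and 98.4 CPM in WT. Only hIAPP 3 lay within the WT range. The log2 fold change reached 0.98 ± 0.20 for hIAPP over WT (edgeR adjusted p = 0.00277) and 1.41 ± 0.21 for rIAPP over WT (2.54e-05). Col1a2 gave -0.43 ± 0.20 for hIAPP over rIAPP (0.124, and -0.65 ± 0.22 with 0.0347 without hIAPP 5 and hIAPP 6).

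Type V collagen sits inside type I fibrils and limits their width. Its chains Col5a1, Col5a2 and Col5a3 were higher in both transgenic genotypes than in WT. Col5a1 had 13.3, 27.2 and 34.8 CPM in hIAPP, 19.9, 24.1 and 34.2 CPM in rIAPP and 8.37, 12.2 and 15.1 CPM in WT, and hIAPP 3 was the library within the WT range. The fold change was 1.05 ± 0.21 for hIAPP over WT (edgeR adjusted p = 0.00228) and 1.10 ± 0.21 for rIAPP over WT (0.000524). Col5a1 gave -0.05 ± 0.21 for hIAPP over rIAPP (0.881). Col5a2, which lies 24614 bases from Col3a1 on chromosome 1 on the other strand, had 39.6, 66.4 and 81.3 CPM in hIAPP, 44.3, 53.5 and 64.6 CPM in rIAPP and 23.1, 29.8 and 36.3 CPM in WT. Neither transgenic range met the WT range, and the fold change was 1.08 ± 0.16 for hIAPP over WT (edgeR adjusted p = 0.000103) and 0.86 ± 0.16 for rIAPP over WT (0.000286). Col5a2 gave 0.22 ± 0.16 for hIAPP over rIAPP (0.325). Col5a3 had 14.9, 19.3 and 23.00 CPM in hIAPP, 11.7, 21.6 and 23.9 CPM in rIAPP and 9.45, 10.9 and 12.2 CPM in WT. The hIAPP libraries all lay above WT, and among the rIAPP libraries rIAPP 6 alone fell within the WT range. The fold change of Col5a3 was 0.83 ± 0.14 for hIAPP over WT (edgeR adjusted p = 0.000377) and 0.90 ± 0.14 for rIAPP over WT (4.34e-05). Col5a3 gave -0.07 ± 0.14 for hIAPP over rIAPP (0.743).

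Among the minor fibrillar collagens, Col27a1, a chain best known from cartilage, differed between the transgenic genotypes. It had 25.3, 30.3 and 41.4 CPM in hIAPP, 38.5, 44.4 and 49.2 CPM in rIAPP and 22.4, 25.5 and 36.2 CPM in WT. All rIAPP libraries lay above all WT libraries, while the hIAPP range overlapped both. Col27a1 was lower in hIAPP than in rIAPP, with a log2 difference of -0.50 ± 0.12 (edgeR adjusted p = 0.00285), higher in rIAPP than in WT by 0.72 ± 0.12 (8.51e-05), and differed by 0.22 ± 0.12 in hIAPP over WT (0.226, and 0.0334 without WT 5). Col11a1 and Col11a2, the type XI chains of cartilage fibrils, were called in no comparison, with CPM medians of 0.765 to 0.799 and 5.68 to 6.63 over the genotypes.

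**Figure D3:**
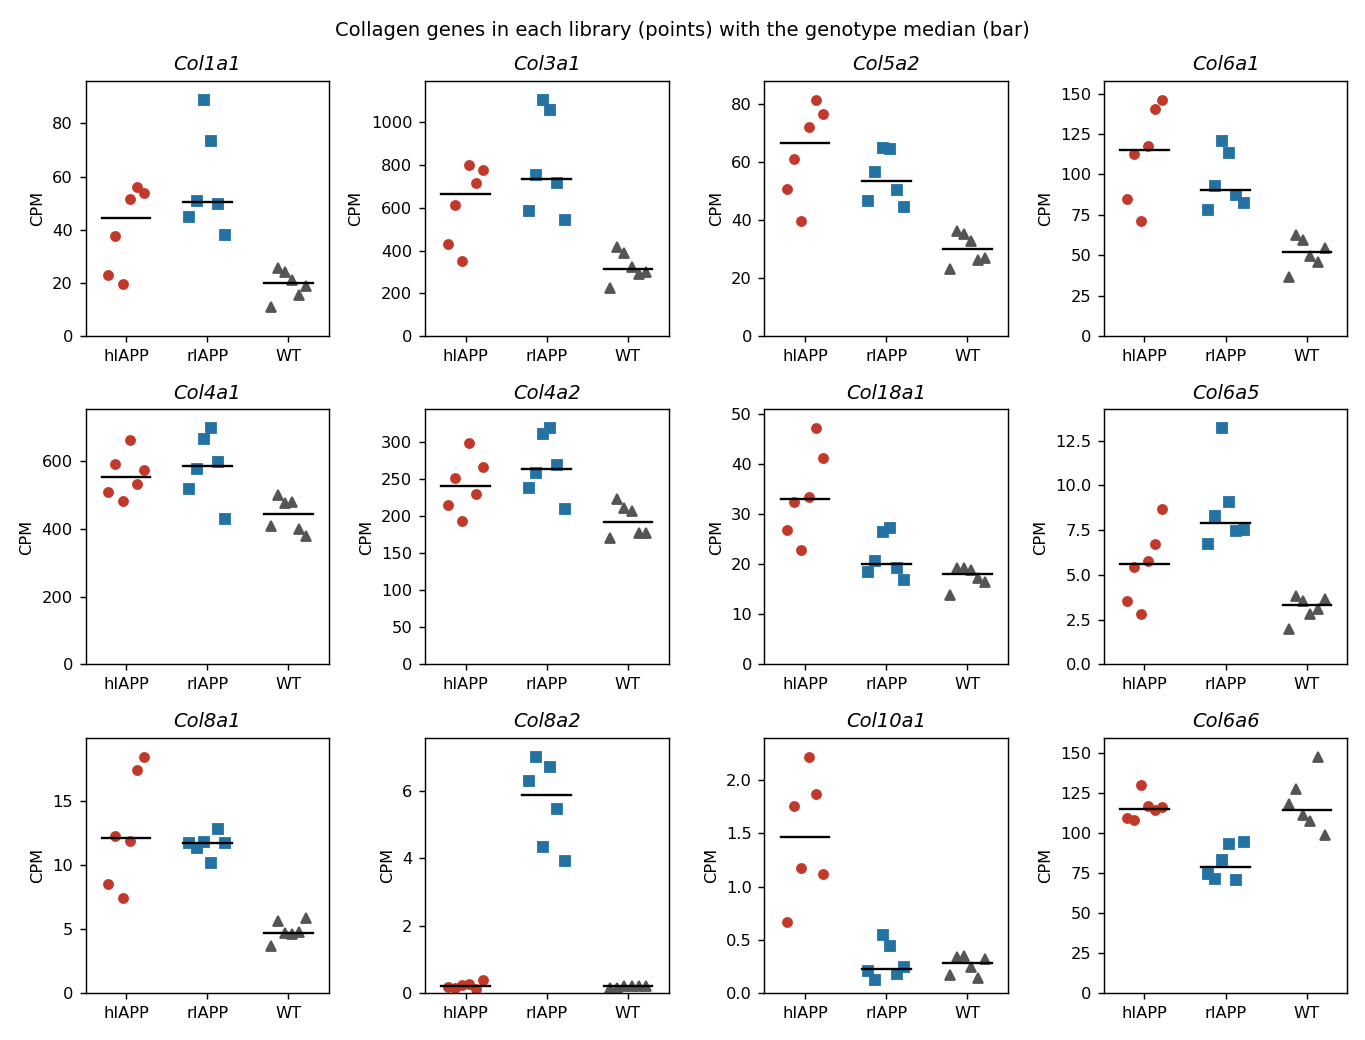
CPM of 12 collagen genes in each of 6 hIAPP, 6 rIAPP and 6 WT libraries (points) with the median (bar), 1 panel per gene on a linear axis. Col1a1, Col3a1, Col5a2, Col6a1 and Col6a5 have higher medians in both transgenic genotypes than in WT, Col8a2 is high only in the 6 rIAPP libraries (3.91 to 7.02 CPM), Col10a1 is high in the 6 hIAPP libraries (0.669 to 2.22 CPM) and Col6a6 is low in the 6 rIAPP libraries (70.9 to 94.5 CPM).

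Type IV collagen of most basement membranes consists of the chains of Col4a1 and Col4a2, whose genes lie head to head on chromosome 8 and overlap by 22 bases at their starts. Their windows around the annotated start, each 300 bases long (RefSeq, GRCm38.p6), are shown because the pair is transcribed outward from this shared stretch, and the windows overlap there. Capitals mark the CCAAT box, the TATAA box and the GC box GGGCGG on either strand, where matches may overlap, and each gene is printed 5′ to 3′:
Col4a1, chr8:11312777-11313076, minus strand: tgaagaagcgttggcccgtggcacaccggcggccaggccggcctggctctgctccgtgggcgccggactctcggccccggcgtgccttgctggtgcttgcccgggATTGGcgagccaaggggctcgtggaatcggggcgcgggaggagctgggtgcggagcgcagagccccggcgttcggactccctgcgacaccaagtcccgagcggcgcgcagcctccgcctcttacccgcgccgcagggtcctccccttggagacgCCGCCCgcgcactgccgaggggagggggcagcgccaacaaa
Col4a2, chr8:11312555-11312854, plus strand: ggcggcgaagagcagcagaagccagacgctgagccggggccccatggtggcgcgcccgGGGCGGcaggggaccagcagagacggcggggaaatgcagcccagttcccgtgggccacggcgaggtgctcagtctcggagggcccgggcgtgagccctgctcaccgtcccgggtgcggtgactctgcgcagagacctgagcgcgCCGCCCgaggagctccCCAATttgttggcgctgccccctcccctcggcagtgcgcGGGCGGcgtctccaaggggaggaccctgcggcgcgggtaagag
The Col4a1 window held 1 CCAAT and 1 GGGCGG match, the Col4a2 window 1 CCAAT and 3 GGGCGG matches, and neither held TATAA. Of 27025 RefSeq promoter windows of this length, 1 per gene, 37.9% held CCAAT, 25.5% TATAA and 35.9% GGGCGG, and of the 35 collagen genes with a window 12, 7 and 22 did. The motif TGANTCA was searched as well and was in 7.93% of all windows and in 1 collagen window, that of Col6a1.

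Col4a1 had 481, 553 and 664 CPM in hIAPP, 428, 587 and 697 CPM in rIAPP and 379, 444 and 501 CPM in WT, with ranges that overlapped between all genotypes. It was higher over WT, with log2 differences of 0.34 ± 0.11 in hIAPP (edgeR adjusted p = 0.0365) and 0.40 ± 0.11 in rIAPP (0.00875), and the difference of hIAPP from rIAPP was -0.06 ± 0.11 (0.752). The call for hIAPP was lost when hIAPP 2, hIAPP 4, hIAPP 6, WT 1, WT 5 or WT 6 was left out, with adjusted p between 0.0589 and 0.0879, and without hIAPP 5 and hIAPP 6 together (0.36 ± 0.12, edgeR adjusted p = 0.0873) or without the filter on low counts (0.0532). Col4a2 had 193, 240.2 and 298 CPM in hIAPP, 209.6, 263 and 318 CPM in rIAPP and 170.0, 192 and 223 CPM in WT. It gave 0.32 ± 0.11 for hIAPP over WT (edgeR adjusted p = 0.0564, not called) and 0.46 ± 0.11 for rIAPP over WT (0.00357). Col4a2 gave -0.14 ± 0.11 for hIAPP over rIAPP (0.379). With hIAPP 1, hIAPP 3, rIAPP 4, rIAPP 6 or WT 2 left out, the hIAPP difference passed, with adjusted p between 0.0214 and 0.0498, as it did in DESeq2 (0.0267), with a filter at 1 CPM (0.037), with library totals alone (0.0174) and in a fit of the 2 genotypes only (0.0476).

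The other type IV chains belong to the specialised membranes of kidney, lung and eye, and were far less abundant. Col4a3 and Col4a4 lie head to head on chromosome 1, 71 bases apart, and Col4a5 and Col4a6 head to head on chromosome X, 1308 bases apart. Col4a4 had 2.87, 3.13 and 4.25 CPM in hIAPP, 4.09, 4.53 and 6.25 CPM in rIAPP and 3.04, 3.49 and 4.04 CPM in WT. The rIAPP libraries lay above WT and, apart from an overlap with the highest hIAPP library, above hIAPP. Its difference was -0.56 ± 0.13 for hIAPP over rIAPP (edgeR adjusted p = 0.00231), 0.49 ± 0.13 for rIAPP over WT (0.00654) and -0.07 ± 0.13 for hIAPP over WT (0.775). Its neighbour Col4a3 was called in no comparison and had -0.37 ± 0.13 for hIAPP over WT (0.0659 as edgeR adjusted p) although every hIAPP library lay below every WT library. It shares 563 exon bases with C430014B12Rik on the opposite strand, so without a stated strand setting their reads cannot be told apart. Col5a1, Col4a2, Col15a1, Col6a4 and Col6a6 likewise share 14 to 162 exon bases with any 1 gene of no known protein on the other strand. Col4a5 and Col4a6 were not called either, with medians of 4.31 to 5.42 and 0.778 to 0.925 CPM.

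The basement membrane collagens that carry heparan or chondroitin sulfate chains are Col15a1 and Col18a1. Col18a1, the precursor of endostatin, an inhibitor of vessel growth (chromosome 10, 77052178 to 77166548, minus strand), had 22.9, 32.9 and 47.1 CPM in hIAPP, 16.8, 19.99 and 27.1 CPM in rIAPP and 13.9, 18.01 and 19.3 CPM in WT. All hIAPP libraries lay above all WT libraries, with hIAPP 5 and hIAPP 6 highest, and overlapped the rIAPP range. Col18a1 was higher in hIAPP than in WT by 0.96 ± 0.15 (edgeR adjusted p = 0.00026) and than in rIAPP by 0.66 ± 0.15 (0.0025), and the difference of rIAPP from WT was 0.30 ± 0.15 (0.169). Without hIAPP 5 and hIAPP 6 it remained higher over rIAPP at 0.43 ± 0.14 (edgeR adjusted p = 0.029) and over WT at 0.73 ± 0.14 (0.00233). Col15a1, whose chain ties basement membranes to the fibrils beneath, had 33.6, 46.5 and 74.4 CPM in hIAPP, 33.05, 48.7 and 67.9 CPM in rIAPP and 34.7, 38.7 and 49.02 CPM in WT. Those ranges overlapped throughout and no comparison was called, at 0.29 ± 0.17 for hIAPP over WT (edgeR adjusted p = 0.29) and 0.35 ± 0.17 for rIAPP over WT (0.153). Col15a1 gave -0.06 ± 0.17 for hIAPP over rIAPP (0.843).

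Type VI collagen is assembled from the chains of Col6a1, Col6a2 and one of several longer chains, of which Col6a3 is the usual one. Col6a1 (chromosome 10, 76708792 to 76726168, minus strand) had 71.05, 115 and 146 CPM in hIAPP, 77.7, 90.04 and 120.4 CPM in rIAPP and 36.7, 51.9 and 62.4 CPM in WT. Col6a2, 85161 bases away on the same strand, had 36.9, 65.6 and 79.02 CPM in hIAPP, 43.3, 52.1 and 68.8 CPM in rIAPP and 20.6, 27.02 and 33.4 CPM in WT. For both genes every hIAPP and every rIAPP library lay above every WT library. The fold change of Col6a1 was 1.13 ± 0.16 for hIAPP over WT (edgeR adjusted p = 0.000105) and 0.90 ± 0.16 for rIAPP over WT (0.000292). Col6a1 gave 0.23 ± 0.16 for hIAPP over rIAPP (0.328). That of Col6a2 was 1.16 ± 0.18 for hIAPP over WT (edgeR adjusted p = 0.000162) and 0.98 ± 0.18 for rIAPP over WT (0.000227). Col6a2 gave 0.17 ± 0.17 for hIAPP over rIAPP (0.51). Col6a3 had 17.8, 41.9 and 60.2 CPM in hIAPP, 27.5, 36.4 and 51.4 CPM in rIAPP and 15.03, 17.5 and 22.6 CPM in WT, with hIAPP 3 within the WT range. The fitted log2 difference was 1.17 ± 0.23 for hIAPP over WT (edgeR adjusted p = 0.00142) and 1.11 ± 0.22 for rIAPP over WT (0.000796). Col6a3 gave 0.06 ± 0.22 for hIAPP over rIAPP (0.876).

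The alternative long chains of type VI, Col6a4, Col6a5 and Col6a6, lie side by side on chromosome 9. Col6a6 (105687809 to 105828160, minus strand) had 108, 115 and 131 CPM in hIAPP, 70.9, 78.9 and 94.5 CPM in rIAPP and 98.9, 115 and 148 CPM in WT. Every rIAPP library lay below every hIAPP and every WT library, and the hIAPP range lay inside the WT range. It was higher in hIAPP than in rIAPP, at a log2 difference of 0.51 ± 0.09 (edgeR adjusted p = 0.000261) and lower in rIAPP than in WT at -0.54 ± 0.09 (0.000134), with -0.03 ± 0.09 for hIAPP over WT (95% interval -0.22 to 0.16, 0.871). Per kilobase Col6a6 was the fourth collagen by median level in WT, at 12.5 CPM per kilobase, against 1.46 for Col6a3. Col6a5, its neighbour on the same strand, was higher in rIAPP than in WT where Col6a6 was lower. It had 2.83, 5.62 and 8.67 CPM in hIAPP, 6.72, 7.88 and 13.2 CPM in rIAPP and 1.96, 3.30 and 3.82 CPM in WT, with all rIAPP libraries above WT, rIAPP 3 highest, and an hIAPP range that overlapped both. Its fold change was 0.80 ± 0.23 for hIAPP over WT (edgeR adjusted p = 0.0216) and 1.46 ± 0.23 for rIAPP over WT (6.29e-05). Col6a5 gave -0.66 ± 0.23 for hIAPP over rIAPP (0.0345). The hIAPP call over WT was lost without hIAPP 5, hIAPP 6 or WT 1 (adjusted p 0.0504 to 0.0691) and without hIAPP 5 and hIAPP 6 together (0.49 ± 0.22, 0.194). The call against rIAPP was lost without hIAPP 1, hIAPP 2, hIAPP 3, hIAPP 4, rIAPP 3 or rIAPP 4 (adjusted p 0.0504 to 0.108), with library totals alone (0.0541) and in a fit of the 2 genotypes only (0.0529).

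Col8a2 and Col10a1, which belong to the network-forming collagens with short chains, held the largest log2 fold changes among the collagens called. Type VIII collagen lies beneath endothelia, where it is made of the chains of Col8a1 and Col8a2, and Col10a1 encodes the chain of growth plate cartilage. The promoter windows of both genes and of Col8a1 are shown because the first 2 have these fold changes and Col8a1 is the partner of Col8a2 (RefSeq, GRCm38.p6, capitals as above):
Col8a1, chr16:57754688-57754987, minus strand: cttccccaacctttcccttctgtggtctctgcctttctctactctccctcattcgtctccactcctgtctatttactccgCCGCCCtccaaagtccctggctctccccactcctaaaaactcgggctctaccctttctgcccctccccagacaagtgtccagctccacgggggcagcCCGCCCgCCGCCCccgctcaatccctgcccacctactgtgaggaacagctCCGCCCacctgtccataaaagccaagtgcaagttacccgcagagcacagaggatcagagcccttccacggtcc
Col8a2, chr4:126286544-126286843, plus strand: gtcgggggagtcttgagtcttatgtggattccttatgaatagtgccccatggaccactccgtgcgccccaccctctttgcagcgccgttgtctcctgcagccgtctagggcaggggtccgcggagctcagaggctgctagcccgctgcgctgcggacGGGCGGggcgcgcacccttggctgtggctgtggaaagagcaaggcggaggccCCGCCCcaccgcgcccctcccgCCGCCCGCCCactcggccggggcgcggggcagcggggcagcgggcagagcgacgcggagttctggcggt
Col10a1, chr10:34389731-34390030, plus strand: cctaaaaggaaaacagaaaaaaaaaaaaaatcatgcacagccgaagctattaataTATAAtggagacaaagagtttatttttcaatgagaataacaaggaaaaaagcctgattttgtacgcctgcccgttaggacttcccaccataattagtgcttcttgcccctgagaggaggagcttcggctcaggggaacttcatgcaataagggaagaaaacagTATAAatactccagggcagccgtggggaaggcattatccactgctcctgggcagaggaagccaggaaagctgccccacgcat
The Col8a1 and Col8a2 windows each held 4 GGGCGG matches and no CCAAT and no TATAA, and the Col10a1 window held 2 TATAA matches and neither of the others. A match in these windows describes their letters only.

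Col8a2 had 0.114, 0.197 and 0.380 CPM in hIAPP, 3.91, 5.88 and 7.02 CPM in rIAPP and 0.158, 0.198 and 0.213 CPM in WT. Every rIAPP library lay far above all hIAPP and WT libraries, whose ranges overlapped each other. The log2 fold change was -4.71 ± 0.24 for hIAPP over rIAPP (edgeR adjusted p = 1.85e-11) and 4.89 ± 0.24 for rIAPP over WT (9.82e-12), a 29.7-fold higher level in rIAPP. For hIAPP over WT it was 0.18 ± 0.24 (95% interval -0.32 to 0.69, edgeR adjusted p = 0.693). Its partner Col8a1 had 7.38, 12.1 and 18.4 CPM in hIAPP, 10.1, 11.7 and 12.8 CPM in rIAPP and 3.66, 4.70 and 5.87 CPM in WT, with all libraries of both transgenic genotypes above WT. The fold change of Col8a1 was 1.38 ± 0.18 for hIAPP over WT (edgeR adjusted p = 2.99e-05) and 1.25 ± 0.18 for rIAPP over WT (1.89e-05). Col8a1 gave 0.13 ± 0.17 for hIAPP over rIAPP (0.633). The ratio of Col8a2 to Col8a1, in CPM, had a median of 0.0202 in hIAPP, 0.483 in rIAPP and 0.0423 in WT.

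Col10a1 had 0.669, 1.47 and 2.22 CPM in hIAPP, 0.122, 0.221 and 0.548 CPM in rIAPP and 0.143, 0.281 and 0.343 CPM in WT. Every hIAPP library lay above every rIAPP and every WT library. Col10a1 was higher in hIAPP, by 2.50 ± 0.36 over WT (edgeR adjusted p = 9.88e-05) and by 2.34 ± 0.36 over rIAPP (4.9e-05), while rIAPP over WT gave 0.16 ± 0.36 (95% interval -0.59 to 0.91, 0.802). Without hIAPP 5 and hIAPP 6 the difference from WT was 2.50 ± 0.40 (edgeR adjusted p = 0.000575) and that from rIAPP 2.33 ± 0.40 (0.000239). Col10a1 lies within Nt5dc1 on the opposite strand and shares 18 exon bases with it, 0.575% of its own exon length. Nt5dc1 itself differed by -0.28 ± 0.09 in hIAPP over WT (edgeR adjusted p = 0.0415) and by 0.02 ± 0.09 in hIAPP over rIAPP (0.908).

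Col7a1 makes the anchoring fibrils that hold epithelial basement membranes to connective tissue. It had 1.42, 2.77 and 4.27 CPM in hIAPP, 2.34, 3.92 and 8.41 CPM in rIAPP and 0.602, 0.959 and 1.50 CPM in WT. All rIAPP libraries and all but hIAPP 1 of the hIAPP libraries lay above the WT range. The fold change was 1.45 ± 0.33 for hIAPP over WT (edgeR adjusted p = 0.00549) and 2.21 ± 0.34 for rIAPP over WT (4.12e-05). Col7a1 gave -0.76 ± 0.32 for hIAPP over rIAPP (0.0855, and 0.0431 without rIAPP 5). Without hIAPP 5 and hIAPP 6 it was 1.16 ± 0.36 for hIAPP over WT (edgeR adjusted p = 0.0525, not called) and -1.06 ± 0.36 for hIAPP over rIAPP (0.0411).

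Collagens of the FACIT class decorate the surface of fibrils. Col12a1, a chain of tissues under tension, had 2.56, 5.09 and 6.52 CPM in hIAPP, 4.58, 7.38 and 8.16 CPM in rIAPP and 1.40, 2.27 and 2.68 CPM in WT. The log2 fold change reached 1.10 ± 0.23 for hIAPP over WT (edgeR adjusted p = 0.00245) and 1.62 ± 0.23 for rIAPP over WT (1.69e-05). Col12a1 gave -0.51 ± 0.22 for hIAPP over rIAPP (0.0934). The rIAPP libraries lay above WT and hIAPP 3 lay within the WT range, and without hIAPP 6 (adjusted p 0.0495) or without hIAPP 5 and hIAPP 6 (-0.71 ± 0.25, 0.0411) Col12a1 passed as lower in hIAPP than in rIAPP. Col14a1, which binds decorin on fibrils, had 25.2, 49.1 and 55.4 CPM in hIAPP, 26.2, 38.3 and 49.5 CPM in rIAPP and 14.02, 22.8 and 25.1 CPM in WT, with both transgenic ranges above the WT range. The fold change of Col14a1 was 1.05 ± 0.19 for hIAPP over WT (edgeR adjusted p = 0.000845) and 0.88 ± 0.19 for rIAPP over WT (0.00134). Col14a1 gave 0.16 ± 0.19 for hIAPP over rIAPP (0.574).

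Col16a1, a minor chain of connective tissues, had 12.2, 17.5 and 22.01 CPM in hIAPP, 14.7, 18.2 and 23.8 CPM in rIAPP and 8.41, 10.1 and 11.00 CPM in WT, again with both transgenic ranges above WT. It gave 0.81 ± 0.14 for hIAPP over WT (edgeR adjusted p = 0.000605) and 0.92 ± 0.14 for rIAPP over WT (4.93e-05). Col16a1 gave -0.11 ± 0.14 for hIAPP over rIAPP (0.617). Col19a1, a chain of muscle and nerve tissue, had 1.64, 1.85 and 2.11 CPM in hIAPP, 1.50, 2.34 and 3.24 CPM in rIAPP and 0.643, 1.09 and 1.40 CPM in WT, both transgenic ranges lying above the WT range. Its difference was 0.76 ± 0.18 for hIAPP over WT (edgeR adjusted p = 0.00748) and 1.16 ± 0.18 for rIAPP over WT (6.02e-05). Col19a1 gave -0.40 ± 0.18 for hIAPP over rIAPP (0.107, and 0.0286 without rIAPP 1). Col20a1 had 6.14, 7.21 and 7.69 CPM in hIAPP, 5.47, 6.03 and 6.87 CPM in rIAPP and 4.35, 5.11 and 6.54 CPM in WT, ranges that overlapped. It was higher in hIAPP than in WT by 0.43 ± 0.09 (edgeR adjusted p = 0.00378), and gave 0.23 ± 0.09 for rIAPP over WT (0.0744, and 0.0108 to 0.0467 without rIAPP 6 or WT 5 and 0.0224 with library totals alone) and 0.20 ± 0.09 for hIAPP over rIAPP (0.123).

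Col28a1, a collagen known from Schwann cells of peripheral nerve, had 6.68, 8.95 and 9.75 CPM in hIAPP, 5.59, 6.67 and 8.33 CPM in rIAPP and 4.92, 6.58 and 8.08 CPM in WT, with overlapping ranges. The fitted log2 difference was 0.37 ± 0.12 for hIAPP over WT (edgeR adjusted p = 0.0446), 0.33 ± 0.12 for hIAPP over rIAPP (0.0509) and 0.04 ± 0.12 for rIAPP over WT (0.854). The hIAPP call over WT was lost without hIAPP 2, hIAPP 4, hIAPP 5, hIAPP 6, rIAPP 2, rIAPP 3, rIAPP 5, WT 1, WT 4, WT 5 or WT 6 (adjusted p 0.0502 to 0.106), without hIAPP 5 and hIAPP 6 together (0.222), without the filter on low counts (0.0564) and in a fit of the 2 genotypes only (0.0563), and the difference from rIAPP passed without hIAPP 1, hIAPP 3, rIAPP 6, WT 1 or WT 3 (0.0217 to 0.0443), in DESeq2 (0.0317), with RLE size factors (0.0499), with at least 1 CPM in 6 libraries (0.042), with a robust spread (0.0478) and in a fit of the 2 genotypes only (0.039). Col13a1, a transmembrane collagen of neuromuscular junctions and other cell contacts, ranked sixth in WT by level per kilobase and was called in no comparison. Its medians were 32.01 CPM in hIAPP, 31.9 CPM in rIAPP and 30.00 CPM in WT, and the 95% interval of the log2 fold change was -0.06 to 0.32 for hIAPP over WT and -0.19 to 0.19 for hIAPP over rIAPP. Col9a2, a cartilage chain, and Col26a1 were not called either.

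A further 5 collagens were called although no genotype averaged 1 CPM. They fall outside the rule for genes described in full and are named here after their values were seen. Col25a1, a transmembrane collagen known from amyloid plaques of the brain, had 0.495, 0.723 and 0.757 CPM in hIAPP, 0.236, 0.360 and 0.4999 CPM in rIAPP and 0.670, 0.828 and 0.856 CPM in WT. All rIAPP libraries lay below WT, hIAPP 1, hIAPP 2, hIAPP 3 and hIAPP 5 lay within the WT range and hIAPP 6 within the rIAPP range. It was higher in hIAPP than in rIAPP by 0.86 ± 0.19 (edgeR adjusted p = 0.00148) and lower in rIAPP than in WT at -1.13 ± 0.19 (9.6e-05), with -0.27 ± 0.18 for hIAPP over WT (0.362). Col9a3, a cartilage FACIT chain, was the collagen that was lower in hIAPP than in WT, at -0.81 ± 0.18 (edgeR adjusted p = 0.00523) with 0.248, 0.460 and 0.542 CPM in hIAPP and 0.632, 0.792 and 0.907 CPM in WT. Against rIAPP it was lower at -0.51 ± 0.18 (edgeR adjusted p = 0.0443), a call lost without hIAPP 1, hIAPP 3, hIAPP 4, hIAPP 5, hIAPP 6, rIAPP 1, rIAPP 3, rIAPP 4, WT 2 or WT 4 (0.0538 to 0.102), without hIAPP 5 and hIAPP 6 together (-0.37 ± 0.18, 0.144), without the filter on low counts (0.139) and in a fit of the 2 genotypes only (0.0849). Col9a3 shares 234 exon bases with Tcfl5 on the opposite strand. Col17a1, the hemidesmosome collagen of epithelia, was higher in hIAPP than in WT by 1.71 ± 0.40 (edgeR adjusted p = 0.00688), with 0.0651, 0.197 and 0.355 CPM in hIAPP and 0.0374, 0.0581 and 0.111 CPM in WT, and it passed as higher over rIAPP without hIAPP 5 (0.0315). Col23a1, another transmembrane collagen, was higher in hIAPP than in WT by 0.49 ± 0.17 (0.0489 as edgeR adjusted p), a call lost without hIAPP 3, hIAPP 4, hIAPP 5, hIAPP 6, rIAPP 1, rIAPP 2, rIAPP 3, rIAPP 5, WT 1, WT 3, WT 4 or WT 6 (0.0528 to 0.13), without hIAPP 5 and hIAPP 6 together (0.235), without the filter on low counts (0.182), with a robust spread (0.0559) and in a fit of the 2 genotypes only (0.0839). Col6a4 was lower in rIAPP than in WT at -1.80 ± 0.63 (edgeR adjusted p = 0.0378), at 0 to 0.0913 CPM in rIAPP and 0.0646 to 0.145 CPM in WT, a call lost without rIAPP 1, rIAPP 4, rIAPP 5, rIAPP 6, WT 1, WT 3, WT 4 or WT 6 (0.058 to 0.0784) and without the filter on low counts (0.0666). It passed as higher in hIAPP than in rIAPP without hIAPP 1, hIAPP 5 or rIAPP 2 (0.015 to 0.043) and in DESeq2 (0.0446).

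Pairs of chains were compared within each library, where a ratio does not depend on library size. The 2 chains of a pair belong to the same collagen type, except Col3a1 and Col1a1, which belong to types III and I and do not share a helix. Each of 6 pairs was tested in 3 comparisons by an exact two-sided permutation test of 6 against 6 libraries, whose smallest possible p is 0.00216, with Benjamini-Hochberg adjustment over the 18 tests. The ratio of Col3a1 to Col1a1, in CPM, was 12.7, 15.96 and 18.8 in hIAPP, 12.4, 14.3 and 14.8 in rIAPP and 15.3, 16.3 and 20.9 in WT (lowest, median and highest library). It was lower in rIAPP than in WT at a mean log2 difference of -0.31 (exact permutation p = 0.00216, adjusted p = 0.0195), and no rIAPP library reached the WT range. The ratio of Col5a1 to Col5a2 was 0.315, 0.385 and 0.455 in hIAPP, 0.439, 0.468 and 0.531 in rIAPP and 0.362, 0.411 and 0.433 in WT. It was higher in rIAPP than in WT by 0.23 (exact permutation p = 0.00216, adjusted p = 0.0195), again without overlap. The head-to-head pair Col4a1 and Col4a2 kept a narrow ratio of 2.15, 2.34 and 2.50 in hIAPP, 2.04, 2.18 and 2.24 in rIAPP and 2.14, 2.26 and 2.41 in WT, with mean log2 differences of 0.03 for hIAPP over WT, 0.10 for hIAPP over rIAPP and -0.06 for rIAPP over WT (exact permutation, adjusted p = 0.527, 0.0779 and 0.14). The ratio of Col6a1 to Col6a2 was 1.74, 1.84 and 1.99 in hIAPP, 1.72, 1.76 and 1.83 in rIAPP and 1.78, 1.89 and 1.96 in WT, and that of Col1a1 to Col1a2 was 0.213, 0.252 and 0.271 in hIAPP, 0.239, 0.261 and 0.304 in rIAPP and 0.191, 0.247 and 0.259 in WT. None of the tests on these pairs or on Col6a3 over Col6a1 passed. Further ratio tests passed when 1 library was left out: Col5a1 over Col5a2 in hIAPP against rIAPP without hIAPP 4, hIAPP 5, hIAPP 6, WT 1, WT 3 or WT 6, Col3a1 over Col1a1 in hIAPP against rIAPP without hIAPP 5, Col4a1 over Col4a2 in hIAPP against rIAPP without hIAPP 6 and in rIAPP against WT without WT 6, Col6a1 over Col6a2 in rIAPP against WT without WT 1 or WT 3, and Col6a3 over Col6a1 in rIAPP against WT without WT 1 (exact permutation, adjusted p 0.0195 to 0.0487). With hIAPP 5 and hIAPP 6 both left out, ratio tests also passed for Col4a1 over Col4a2, Col6a3 over Col6a1, Col5a1 over Col5a2 and Col3a1 over Col1a1 in hIAPP against rIAPP, at mean log2 differences of 0.12, -0.35, -0.39 and 0.30, and for Col6a1 over Col6a2 in rIAPP against WT at -0.08 (exact permutation, adjusted p 0.0286 to 0.039). Col5a1 over Col5a2 without WT 1, WT 3 or WT 6, and Col6a1 over Col6a2 without hIAPP 5 and hIAPP 6, passed with none of their own libraries left out. Their ratios were unchanged there, and only the adjustment over the 18 tests moved.

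**Figure D4:**
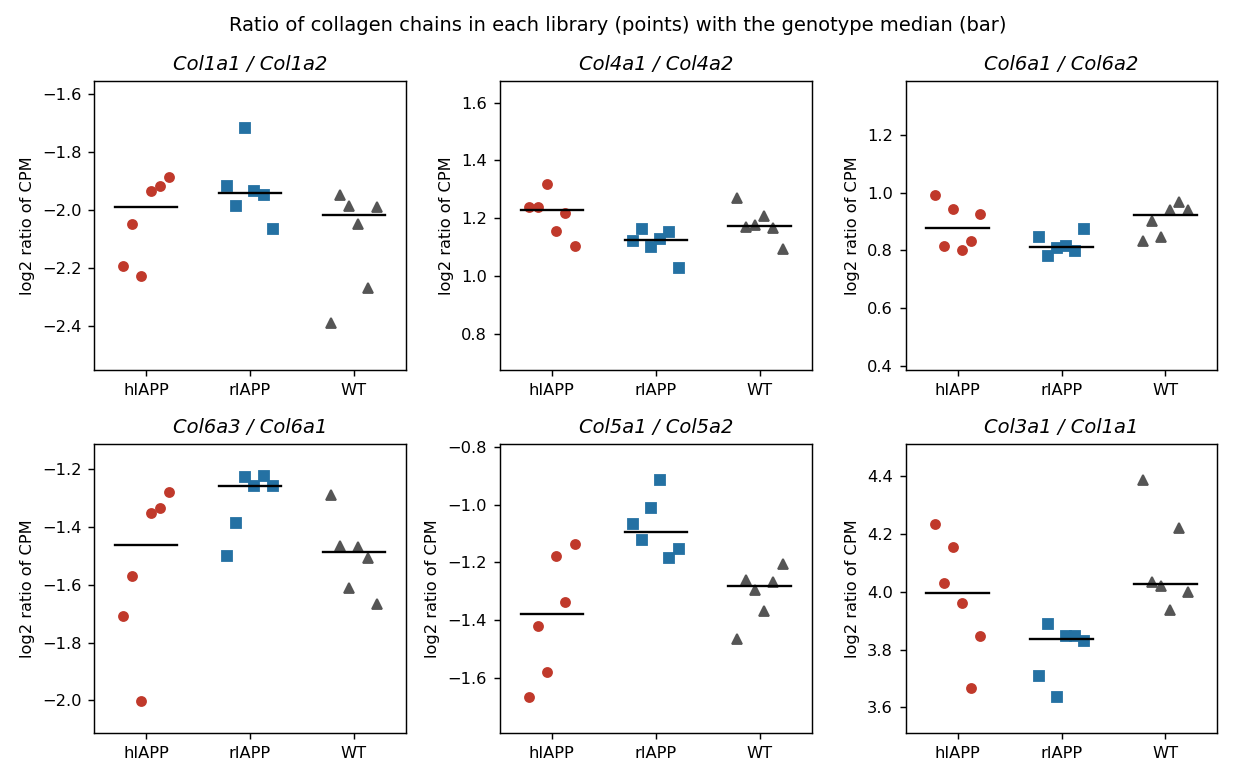
Log2 ratio of the CPM of 6 pairs of collagen chains in each of 6 hIAPP, 6 rIAPP and 6 WT libraries (points) with the median (bar). Col4a1 over Col4a2 and Col6a1 over Col6a2 span a narrow range in every genotype, while Col3a1 over Col1a1 lies lower and Col5a1 over Col5a2 higher in the rIAPP libraries than in all WT libraries.

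Genes that fold, process and bind collagens were followed beside them. Of all genes tested, 8.31% were higher and 7.53% lower in hIAPP over WT, and 14.1% and 12.6% in rIAPP over WT. In hIAPP over rIAPP the shares were 13.5% and 14.1%. Some counts in the lists below lie near these shares, such as 2 of 20 folding genes (10%) higher in hIAPP over rIAPP. Of 20 genes for folding and hydroxylation, 4 were higher and 1 lower in hIAPP over WT (median 0.16), 9 higher and 1 lower in rIAPP over WT (median 0.24), and 2 higher and 5 lower in hIAPP over rIAPP (median -0.06). P3h2, a prolyl 3-hydroxylase, was higher by 0.66 ± 0.15 in hIAPP over WT (edgeR adjusted p = 0.00447) and by 1.55 ± 0.15 in rIAPP over WT (9.34e-08), and lower at -0.90 ± 0.14 in hIAPP over rIAPP (8.12e-05). Plod2, a lysyl hydroxylase, was higher in rIAPP over WT by 1.16 ± 0.12 (edgeR adjusted p = 4.11e-07) and lower in hIAPP over rIAPP at -0.81 ± 0.12 (3.69e-05). Serpinh1, the collagen chaperone HSP47, was higher by 0.54 ± 0.15 in hIAPP over WT (edgeR adjusted p = 0.0161).

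Of 18 tested genes for export, propeptide processing and crosslinking, 7 were higher and none lower in hIAPP over WT, 7 higher and 2 lower in rIAPP over WT, and 2 higher and 5 lower in hIAPP over rIAPP (medians 0.15, 0.31 and -0.13). Adamts2, which removes the amino-terminal propeptide, was higher by 0.93 ± 0.18 in hIAPP over WT (edgeR adjusted p = 0.00137) and by 1.42 ± 0.18 in rIAPP over WT (4.29e-06). Pcolce, an enhancer of carboxyl-terminal processing, was higher by 0.98 ± 0.20 in hIAPP over WT and by 1.72 ± 0.20 in rIAPP over WT (edgeR adjusted p = 0.00204 and 1.35e-06). Lox, the lysyl oxidase that starts crosslinking, was higher by 0.99 ± 0.21 in hIAPP over WT and by 1.38 ± 0.21 in rIAPP over WT (edgeR adjusted p = 0.00277 and 3.32e-05). Its relative Loxl2 was lower in rIAPP than in WT at -0.73 ± 0.07 (edgeR adjusted p = 2.34e-07) and higher in hIAPP than in rIAPP by 0.65 ± 0.07 (1.05e-06).

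Among 16 collagen-binding matrix proteins, 10 were higher in hIAPP over WT and 12 in rIAPP over WT, with none lower, and 3 were higher and 7 lower in hIAPP over rIAPP (medians 0.64, 0.84 and -0.20). Fn1, fibronectin, was higher in hIAPP by 2.15 ± 0.28 over WT (edgeR adjusted p = 3.3e-05) and 1.61 ± 0.27 over rIAPP (0.000152). Ogn, a small proteoglycan of fibrils, was lower in hIAPP than in rIAPP at -1.85 ± 0.22 (edgeR adjusted p = 1.73e-06). It was higher in rIAPP than in WT by 1.66 ± 0.21 (5.8e-06), with medians of 2.24, 9.45 and 2.61 CPM in hIAPP, rIAPP and WT. Of 19 laminins and other basement membrane proteins, 7 were higher and 1 lower in hIAPP over WT, 11 higher and 1 lower in rIAPP over WT, and 1 higher and 5 lower in hIAPP over rIAPP (medians 0.29, 0.40 and -0.13). Smoc1, a calcium-binding basement membrane protein, was higher by 1.38 ± 0.12 in hIAPP over WT and 3.14 ± 0.12 in rIAPP over WT (edgeR adjusted p = 1.84e-07 and 3.5e-13). Of 9 tested collagen receptors, 3 were higher and none lower in hIAPP over WT, 5 higher and 1 lower in rIAPP over WT, and 2 higher and 1 lower in hIAPP over rIAPP (medians 0.36, 0.28 and -0.03). Mrc2, the receptor that takes up collagen for breakdown, was higher by 1.32 ± 0.23 in hIAPP over WT and 1.22 ± 0.23 in rIAPP over WT (edgeR adjusted p = 0.000541 and 0.000352), and Lair1, an inhibitory collagen receptor of leukocytes, was higher by 0.997 ± 0.17 in hIAPP over rIAPP (0.000154).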

How the data were processed

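RNA was taken from islets of 18 mice, 6 for each genotype, with the RNeasy kit and sequenced from TruSeq libraries depleted of ribosomal RNA with Ribo-Zero, per the labels. STAR and HTSeq, with the GRCm38 and mm10 builds, are named without versions in the submitters' processing notes. The deposited values are estimated counts per gene: 182064 of them, 39.2% of those above 0, were not whole, and they were rounded to whole numbers here. How the fractions arose is not given in the sources used here, and neither are the gene models or whether strand was used in counting. Each genotype's libraries come from separate mice, and 45 pairs of libraries of a genotype all differed by more than sampling noise. All columns were matched to samples by name.

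Counts were fitted with edgeR 4.0.16 (quasi-likelihood test, TMM factors, filterByExpr by genotype, all 18 libraries in a fit without covariates), with Benjamini-Hochberg adjustment over 20244 genes and a threshold of 0.05. CPM scales each count by the TMM-adjusted library size. Total counts per library are given with the results. Levels per kilobase used the union of exons of a GENCODE annotation, which understates genes with many isoforms. Chain ratios were tested with exact permutations. The fit was tested on simulated data. The collagen genes and the other gene lists were chosen with earlier results of these data known. Lowest, median and highest CPM are given for collagens called in at least 1 comparison with a mean of at least 1 CPM in their highest genotype and for 12 set collagens, and of other lists up to 4 called genes with the smallest p in a comparison may be named. Alternatives were other scaling, other filters, DESeq2 1.42.0, a robust spread, 2 genotypes at a time, the acinar markers as a covariate, libraries left out and, for ratios, a pseudocount. Promoters came from RefSeq (GRCm38.p6), which matched 35 of 44 collagen genes.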

Additional observations from a re-analysis of the deposited data

Results flagged for a closer look

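In 81 groups of 6 libraries (each described collagen in each genotype), the library farthest from the others was compared with the group's whole range, and 2 stood apart, where chance alone marks about 1 in 20 groups. Col5a3 in rIAPP 6 was 11.7 CPM, below 20.5 to 23.9 CPM in the other rIAPP libraries. Col6a5 in rIAPP 3 was 13.2 CPM, above 6.72 to 9.07 CPM in the other rIAPP libraries.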

How the results depend on the processing

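Of the 57 collagen differences between genotypes that were called, 0 changed sign under any alternative run, while 31 alternative values of 39 differences that were not called did. The 39 belong to collagens described in full or called at low levels, and the other tested collagens are outside this tally. With the acinar markers as a covariate, the count of collagens higher in hIAPP over WT was 5 and the count lower was 0, the count higher in hIAPP over rIAPP was 7, and in rIAPP over WT 10 were higher and 0 lower. With at least 1 CPM in 6 libraries, 0 were lower in hIAPP over WT and 1 in rIAPP over WT. With the 2 genotypes compared alone, 2 were lower in hIAPP over WT and 3 in hIAPP over rIAPP, and DESeq2 gave 2 lower in hIAPP over WT. Without hIAPP 5 and hIAPP 6, and with rIAPP 1 and rIAPP 2 and their high acinar sums kept, 8 were lower in hIAPP over rIAPP and 7 chain ratio tests passed. With each library left out in turn, the counts were 1 to 2 lower in hIAPP over WT (2 without rIAPP 3 or WT 5), 3 to 6 lower in hIAPP over rIAPP (3 without hIAPP 1, hIAPP 3, hIAPP 4, rIAPP 3 or rIAPP 4), and 2 to 5 chain ratio tests (4 or 5 without hIAPP 5, hIAPP 6, WT 1, WT 3 or WT 6). With library totals alone the median of all genes shifted by 0.106 in hIAPP over WT and 0.103 in rIAPP over WT, the calls among all genes were 3139 higher and 480 lower against 1683 and 1525 in hIAPP over WT, and 4554 and 1404 against 2860 and 2557 in rIAPP over WT, and the collagen medians were 0.58 and 0.59. The calls among all genes in hIAPP over WT were 1675 without hIAPP 5 and hIAPP 6, against 3208. The causes were not tested. Of the alternative values for single collagens in the same tally, 2428 kept their side of the threshold, 107 lost it and 38 gained it, and of those for chain ratios 343 kept it and 17 gained it. That tally pools called and uncalled differences over all alternatives, most of them with 1 library left out. With the acinar markers as a covariate, 33 of the 57 calls were lost. These were 19 of 24 in hIAPP over WT and 14 of 24 in rIAPP over WT. Leaving out single libraries ended 7 of the 57 calls in at least 1 run. No paired analysis was possible because the mouse numbers in the labels are not shared between genotypes. Depth limits Col6a4, which was at 0 in at least 1 rIAPP library.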
